A study of Mus musculus with 27 samples.

Results

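The transcripts described here were chosen by their reads in 4 RNA libraries of mouse embryonic stem cells: close to the untreated level after 3 h with triptolide, and at least 4-fold below it at 6 h. Reads were expressed as CPM, reads per 1000000 reads of a library, and compared as log2 ratios of CPM, triptolide over untreated. A member had a mean CPM of 10 or more, a log2 ratio from -0.3 to 0.3 at 3 h and a log2 ratio of -2 or less at 6 h. Of 137271 listed transcripts, 54 met the rule. The rule also left out a set of identifiers, of which 44 were listed and 27 reached that mean CPM. The comparisons below therefore rest on the 10899 remaining transcripts that did, called the compared transcripts.

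All 4 libraries were of polyadenylated RNA from KH2 cells of the genotype KH2:13 Flag-BAP-H3 tags, an embryonic stem cell line that carries tagged histone H3. Per the labels, cells were blocked at the border of G1 and S phase by repeated thymidine, in medium with LIF, the MEK inhibitor PD0325901 at 1 µM and the GSK3 inhibitor CHIR99021 at 3 µM. They were harvested 3 h or 6 h after release into S phase, either untreated or with 1 µM triptolide. The labels do not give the hour at which triptolide was added, nor whether doxycycline was given to these cells. Each condition had 1 library, so every difference sets 1 library against 1 other, with no replicate and no test. The intervals given are 95% intervals that cover counting error only (for medians, the spread over transcripts): no molecular identifiers are described, so reads may be copies of the same molecule. The intervals of ratios also treat rounded read estimates as counts, so they leave out the uncertainty of dividing reads among transcripts.

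Triptolide is a compound from a medicinal vine that stops RNA polymerase II from starting new transcripts, by acting on the XPB subunit of TFIIH. With initiation blocked, an existing mRNA is expected to persist for as long as its own turnover allows, and messages differ widely in stability. A profile with little difference at an early time and a large one later is the one the rule selects. All values here are shares of a library, so that a loss common to all messages would not be seen, and fewer cells of a type and less RNA per cell cannot be told apart.

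The tables name transcripts by Ensembl identifier and pair none with a gene: 0 of 137271 identifiers occurred in the gene and sequence tables used here. No gene, stem cell marker or pathway could therefore be named, and no sequence is shown. The most abundant member, ENSMUST00000105738.8, and the member with the lowest 6 h ratio, ENSMUST00000226496.1, are given by identifier, and the others by their length in nucleotides (nt), which was unique within the 54.

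The members were less abundant than the compared transcripts, with a median of the mean CPM of 15.6 against 28.6. All 54 had their lowest level in the triptolide library at 6 h. That library was also the lowest for 53.1% of the compared transcripts, and for the members the rule largely fixes it. Their median level was 17.9 CPM untreated and 16.5 CPM with triptolide at 3 h, and 22.6 CPM untreated and 4.28 CPM with triptolide at 6 h. Summed over the 54, they held 0.154% of the reads of the untreated and 0.137% of the triptolide library at 3 h, against 0.186% and 0.0376% at 6 h. The summed share was thus close in the 3 h libraries, highest in the untreated library at 6 h and lowest in the treated one. No member was at 0 in any library (0 of 54). In the triptolide 6 h library the members had 31 to 1110 reads each, with a median of 82, and 7 of them had fewer than 50.

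**Figure D1:**
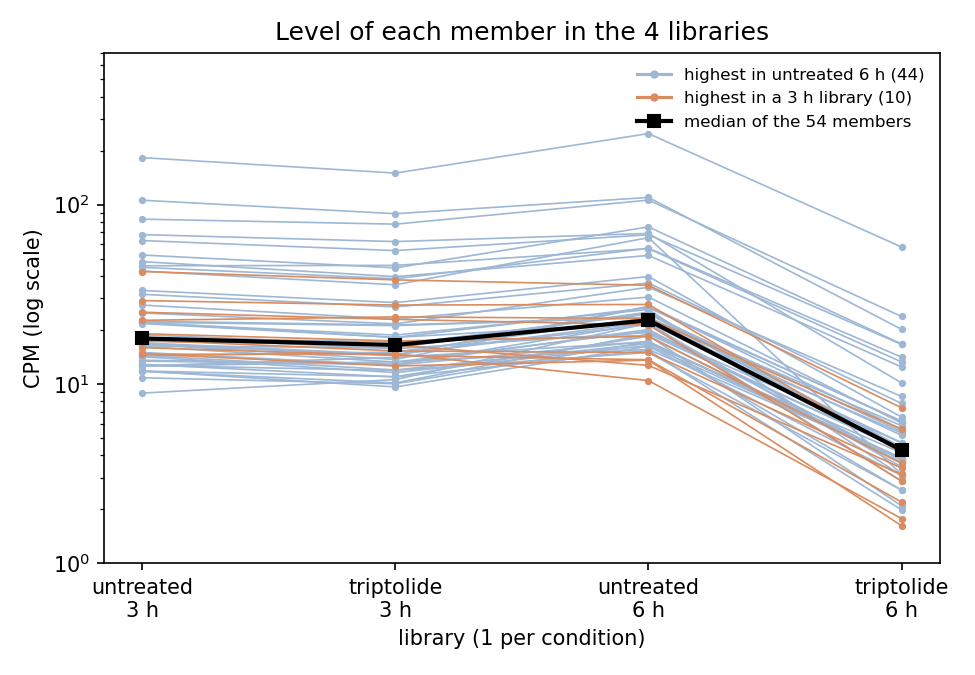
Level of each of the 54 members, in CPM on a log scale, in the 4 libraries; each thin line is 1 transcript and the black line joins the medians of 17.9, 16.5, 22.6 and 4.28 CPM. All 54 lines end at their lowest point in the triptolide 6 h library, and 44 have their highest point in the untreated 6 h library.

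ENSMUST00000105738.8, of 4006 nt, was the most abundant member. It stood at 183 CPM untreated and 150 CPM with triptolide at 3 h, and at 249 CPM untreated and 58.0 CPM with triptolide at 6 h. Only its treated 6 h value was far from the others, and its untreated level was higher at 6 h than at 3 h. Its log2 ratio was -0.29 at 3 h (interval -0.35 to -0.23) and -2.10 at 6 h (interval -2.19 to -2.01), the latter being 4.29-fold lower. It lay close to the edge of both limits of the rule.

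The transcript of 9021 nt came next in reads, with 106 and 88.9 CPM at 3 h and 109.6 and 20.2 CPM at 6 h, untreated and treated in that order. Its untreated libraries were nearly level, and its 6 h log2 ratio was -2.44 (interval -2.60 to -2.29). The transcript of 8377 nt had the same shape, with 68.0 and 62.2 CPM at 3 h and 69.0 and 10.1 CPM at 6 h. With the drug its 6 h level was 6.81-fold lower (log2 ratio -2.77, interval -2.99 to -2.55), and its interval lay wholly beyond the limit of 4-fold.

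The remaining 5 of the 8 members with the most reads had 6 h log2 ratios from -2.17 to -2.02. The transcript of 4555 nt had 82.9 and 77.8 CPM at 3 h and 106 and 23.8 CPM at 6 h, a 6 h log2 ratio of -2.16 (interval -2.30 to -2.01). The transcript of 5205 nt had 63.0 and 55.4 CPM, then 67.8 and 16.6 CPM (log2 ratio -2.03, interval -2.21 to -1.86). The transcript of 4933 nt had 52.3 and 44.4 CPM, then 75.1 and 16.7 CPM (log2 ratio -2.17, interval -2.34 to -2.0). In each of these the treated 6 h library was the low one and the untreated 6 h library the high one.

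The transcript of 3001 nt was level at 3 h, with 45.6 CPM untreated and 45.8 CPM treated (log2 ratio 0.01, interval -0.11 to 0.12). At 6 h it had 56.8 and 13.3 CPM (log2 ratio -2.10, interval -2.30 to -1.90). The transcript of 2295 nt had 44.7 and 38.6 CPM at 3 h and 57.1 and 14.1 CPM at 6 h (log2 ratio -2.02, interval -2.21 to -1.83). Both fitted the rule at 6 h by a margin smaller than their counting error.

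The member with the lowest 6 h ratio was ENSMUST00000226496.1, of 780 nt. It had 42.6 CPM untreated and 35.7 CPM treated at 3 h, and 65.4 and 3.13 CPM at 6 h. The treated 6 h value rested on 60 reads against 1629 in the untreated library, a 20.9-fold lower level (log2 ratio -4.38, interval -4.78 to -4.01). At 3 h its log2 ratio was -0.25 (interval -0.38 to -0.13), below 0 by more than counting error. No other member came near its 6 h ratio, the next being -3.16.

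Besides this transcript and that of 8377 nt, the members with 6 h intervals farthest below the limit were those of 3543 and 1103 nt. The transcript of 3543 nt had 21.9 and 18.7 CPM at 3 h and 26.0 and 3.08 CPM at 6 h (log2 ratio -3.08, interval -3.49 to -2.69). The transcript of 1103 nt had 18.0 and 17.2 CPM at 3 h and 18.6 and 2.09 CPM at 6 h (log2 ratio -3.16, interval -3.66 to -2.69). In both, the treated 6 h library alone was low. For the latter its value came from 40 reads.

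Per length, in TPM (transcripts per 1000000, as deposited), the order of the members changed. ENSMUST00000226496.1 led with 66.5 TPM untreated and 52.5 TPM treated at 3 h, and 104 and 4.03 TPM at 6 h. ENSMUST00000105738.8 followed with 50.7 and 39.1 TPM at 3 h and 70.0 and 13.3 TPM at 6 h. The transcript of 621 nt had 33.9 and 27.5 TPM, then 55.5 and 10.4 TPM. In the triptolide 6 h library ENSMUST00000226496.1 was the lowest of these 3, and in the other libraries the highest. Mean TPM over the libraries ran from 1.75 to 56.7 with a median of 6.57, against a median of 13.8 over the compared transcripts.

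The 3 h and 6 h log2 ratios chose the members, so their values are a description and support nothing. At 6 h the ratios ran from -4.38 to -2.0, with a median of -2.25 (interval -2.42 to -2.16), 4.77-fold lower. Over all 10899 compared transcripts the median was -0.22, and 5.23% were at -2 or less. Of the 54 members, 17 lay at -2.5 or less (31.5%) and 4 at -3 or less (7.41%). Over the compared transcripts these shares were 2.45% and 1.14%. Among the 205 transcripts at -1 or less at 3 h and -2 or less at 6 h, they were 67.3% and 40.5%. In 25 of the 54 members the whole 6 h counting interval lay at -2 or less, and in all 54 it lay below -1. The group was thus crowded against the 6 h limit: the nearest members inside it had -2.0025 and -2.02, and the nearest transcripts outside it -1.997 and -1.99, in transcripts of 1554 and 1430 nt.

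At 3 h the members were not centred on no difference. Their log2 ratios ran from -0.30 to 0.25 with a median of -0.19 (interval -0.21 to -0.11), against 0.02 in the 6686 transcripts that were equally steady at 3 h but not members. Of the members, 47 of 54 (87.0%) were below 0 at 3 h, as were 46.7% of those 6686. The whole 3 h counting interval lay below 0 in 30 members, held 0 in 24 and lay above 0 in none. The working name of the group, transcripts lower only late, therefore holds within the width of the window: in 30 of the 54 a small difference at 3 h already exceeded counting error. How many of the 6686 also differed beyond counting error at 3 h was not counted. They had more reads, with a median of the mean CPM of 34.6 against 15.6, so the 30 are not shown to be particular to the members. The counting interval at 3 h reached beyond -0.3 in 33 members, so that membership at that edge was within counting error too. In no member did the 3 h and 6 h intervals overlap, which the limits of the rule largely fixed.

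**Figure D2:**
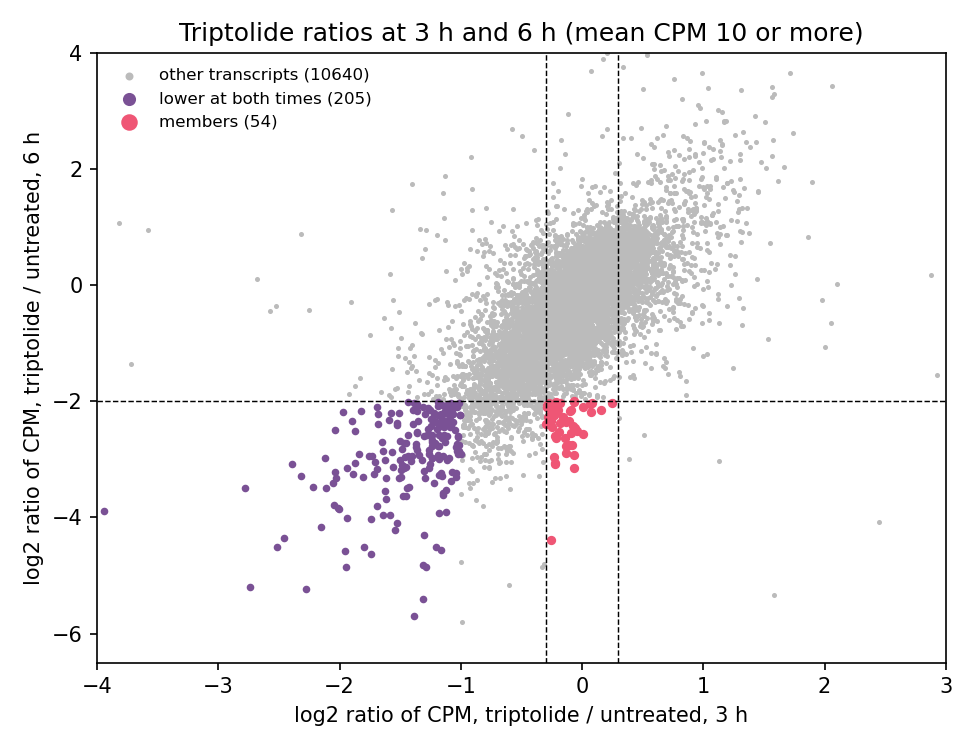
Log2 ratio of CPM, triptolide over untreated, at 3 h (x axis) and 6 h (y axis) for the compared transcripts; the dashed lines are the limits of the rule, and 16 of the 10899 transcripts lie outside the axes. The 54 members sit below -2 at 6 h and mostly on the left side of the 3 h window, beside a larger number of transcripts that were lower at both times.

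The share of transcripts at -2 or less at 6 h differed with the 3 h ratio. Of the 331 transcripts with a 3 h ratio of -1 or less, 61.9% were at -2 or less at 6 h. The share was 26.4% of 798 transcripts from -1 to -0.6, and 5.93% of 1586 from -0.6 to -0.3. Inside the window it was 3.08% of 845 transcripts from -0.3 to -0.2 (interval 2.02% to 4.48%), 1.03% of 1063 from -0.2 to -0.1 and 0.792% of 1263 from -0.1 to 0. Above 0 it was 0.365% of 1371 transcripts up to 0.1, 0.0794% of 1260 from 0.1 to 0.2 and 0.107% of 938 from 0.2 to 0.3. Beyond the window it was 0.306% of 979 transcripts from 0.3 to 0.6 and 0.645% of 465 above 0.6, so that the lowest shares lay inside the window. These counts follow the rule, since they are its own contrasts.

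**Figure D3:**
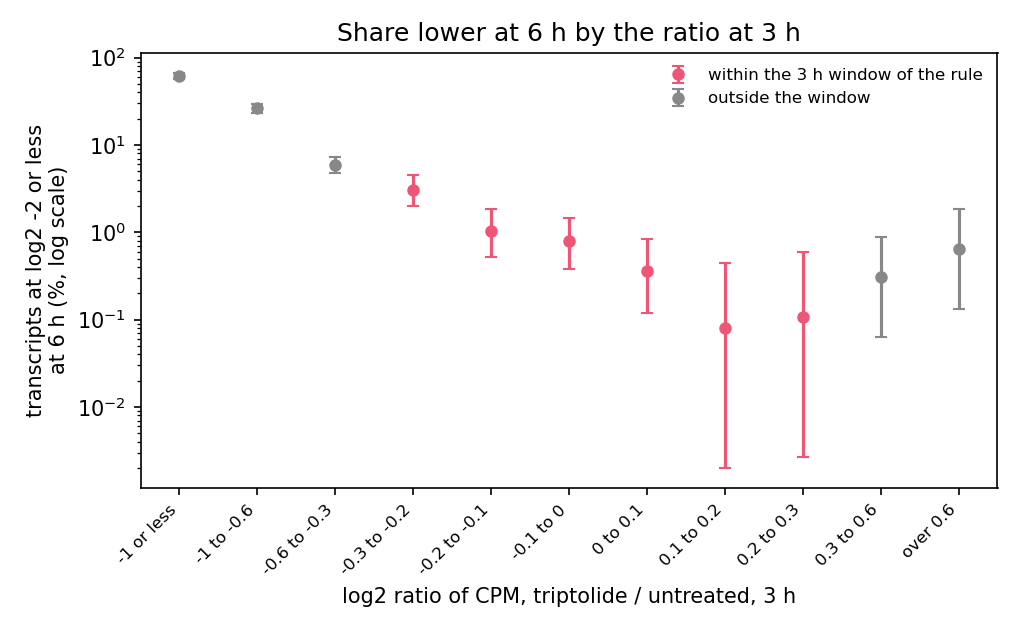
Share of transcripts at a log2 ratio of -2 or less at 6 h (y axis, percent, log scale) in classes of the 3 h log2 ratio (x axis), with exact binomial intervals; the classes inside the 3 h window hold the members. The share is 61.9% in the lowest class, 3.08% in the lowest class inside the window and 0.0794% to 0.107% in the classes from 0.1 to 0.3.

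Accordingly 26 of the 54 members came from the lowest class of the window, 11 from the next and 10 from -0.1 to 0, with 5, 1 and 1 above 0. The window held 61.8% of all 10899 transcripts, and 54 of its 6740 transcripts (0.801%) were members, which is 0.495% of all. Of the 570 transcripts at -2 or less at 6 h, the members made up 9.47%. Another 205 (36.0%) were at -1 or less at 3 h, 305 (53.5%) lay between -1 and -0.3, and 6 (1.05%) were above 0.3. Just outside the window were transcripts with -0.30 and -0.31 at 3 h (6 h ratios -2.05 and -4.81) and with 0.30 and 0.39 (6 h ratios -2.29 and -2.99). The nearest members inside had -0.30 and -0.29, and 0.25 and 0.16.

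The change from 3 h to 6 h was looked at within each treatment. With triptolide, the members went from a median of 16.5 to 4.28 CPM, a median log2 ratio of -1.86 (interval -2.08 to -1.77, range -3.51 to -0.99). A ratio of -1 or less was seen in 53 of 54 members and in 12.8% of the compared transcripts, and one of -2 or less in 21 of 54 and in 1.26%. Both treated libraries entered the rule, so a low ratio was set by the choice. In the 205 transcripts lower at both times, the treated level had a median of 12.0 CPM at 3 h and of 4.23 CPM at 6 h. Their median treated ratio was -1.36 (interval -1.44 to -1.26). The members and these 205 therefore had about the same treated median level at 6 h, beside untreated 6 h medians of 22.6 and 32.4 CPM.

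Without triptolide most members stood higher at 6 h than at 3 h, a direction that depended on the reference used to choose them. The untreated log2 ratio, 6 h over 3 h, had a median of 0.26 (interval 0.15 to 0.35), against -0.0093 over all transcripts, -0.02 in the steady non-members and 0.02 in the 205 lower at both times. It was above 0 in 45 of the 54 members, against 48.3% of all transcripts. A ratio of 0.3 or more was seen in 24 members (44.4%), against 11.0% of all and 18.0% of the 205 lower at both times. The counting interval lay wholly above 0 in 37 members, wholly below 0 in 6 and held 0 in 11. These intervals were not taken for the compared transcripts, so no share over all transcripts stands beside these counts. The untreated 6 h library is the denominator of the 6 h ratio and the untreated 3 h library that of the 3 h ratio, so a high value in the former favours membership. The untreated time ratio is for this reason not independent of the rule. When transcripts were chosen against the mean of both untreated libraries, its median was -0.19, and against the untreated 3 h library it was 0.010.

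The transcript of 738 nt was the extreme case. It had 8.89 CPM untreated and 10.6 CPM treated at 3 h, and 21.8 and 5.33 CPM at 6 h. Its untreated ratio was 1.30 (interval 1.08 to 1.52), the only one of 1 or more among the members, and its treated 6 h level was 1.67-fold below the untreated 3 h level. The transcript of 1283 nt was the opposite case, with 14.6 and 14.7 CPM at 3 h and 10.4 and 1.78 CPM at 6 h. Its untreated ratio was -0.49 (interval -0.72 to -0.26), and its treated log2 ratio, 6 h over 3 h, was -3.05.

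**Figure D4:**
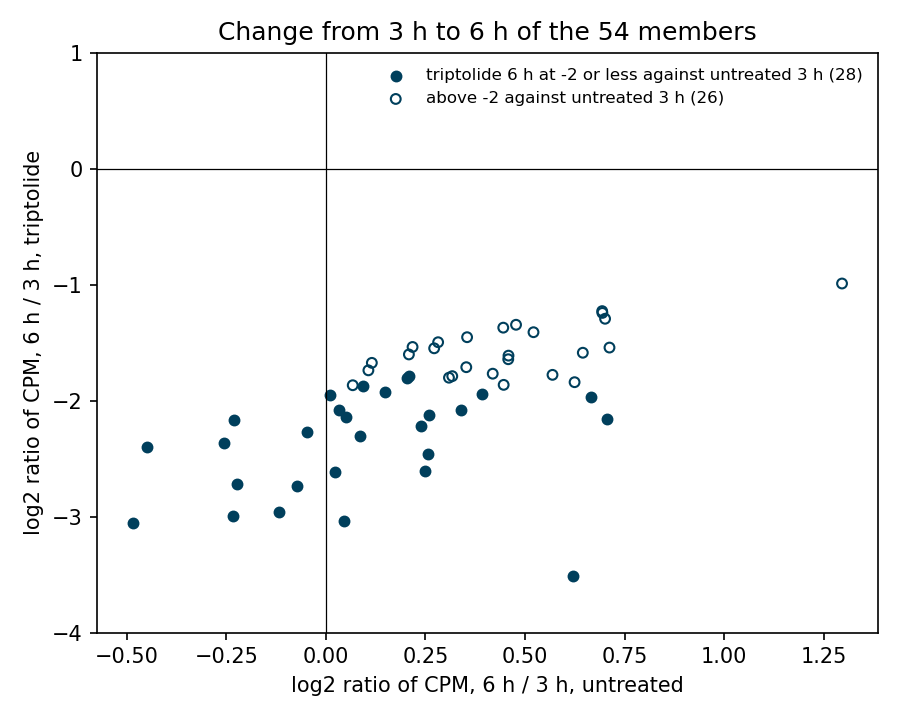
Log2 ratio of CPM, 6 h over 3 h, in the untreated (x axis) and triptolide (y axis) libraries for the 54 members; filled points are the 28 whose treated 6 h level was at a log2 ratio of -2 or less against the untreated 3 h level. Of the points, 45 lie to the right of 0, and all lie between -3.51 and -0.99 on the y axis.

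Set against the untreated 3 h library, the treated 6 h level had a median log2 ratio of -2.02 (range -3.76 to -0.74). It was at -2 or less in 28 of 54 members and at -1 or less in 53. Among the 24 members with an untreated ratio of 0.3 or more, 5 were at -2 or less by this measure, and among the other 30 it was 23. This split was largely set in advance, since the measure is the 6 h log2 ratio plus the untreated ratio. It is no separate result. For 26 of the 54, the 4-fold difference at 6 h thus needed the higher untreated level at 6 h as its reference.

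By the library in which they stood highest, the members fell into 44 that peaked in the untreated 6 h library, 8 in the untreated 3 h library and 2 in the treated 3 h library. These libraries were the highest for 29.1%, 26.1% and 17.4% of the compared transcripts, in the same order. The 44 had medians of 17.9, 16.2, 23.4 and 4.57 CPM (untreated and treated at 3 h, then at 6 h). The 8 had medians of 18.3, 16.9, 16.7 and 3.26 CPM, and a median treated time ratio of -2.56 against -1.79 in the 44. This gap was largely set by the split, since the median untreated time ratios were -0.23 and 0.33. The rule also bounds the triptolide ratios of both times. The transcript of 4792 nt was the most abundant of the 8, with 42.3 and 38.0 CPM at 3 h and 35.5 and 7.36 CPM at 6 h. The 2, of 1283 and 5058 nt, differed little between the 3 h libraries (log2 ratios 0.01 and 0.06). All 10 of these members were at -2 or less against the untreated 3 h library. The rule fixed this wherever the untreated level was no higher at 6 h than at 3 h, so it is no separate result.

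With abundance limited in CPM, the members were longer than the other steady transcripts, but the direction turned when the limit was in TPM or was 10 reads in total. The rule did not name length, although reads per transcript grow with it. Their median length was 3508.5 nt (interval 2800 to 3965), against 2477.5 nt in the steady non-members (interval 2410 to 2532), 2866 nt in the 205 lower at both times (interval 2631 to 3106) and 2615 nt over the compared transcripts. These intervals treat transcripts as independent, so whether they overlap is not read as a result. Lengths of 4000 nt or more were found in 19 of 54 members (35.2%, interval 22.7% to 49.4%) and 24.3% of the steady non-members. Under 2000 nt were 14 members (25.9%, interval 15.0% to 39.7%) and 39.6% of the steady non-members. No test is given, since transcripts are not replicates and some may come from the same gene. With the rule applied in TPM the median length was 779.5 nt in the transcripts selected and 1599 nt in the other steady ones. With 10 reads summed over the 4 libraries as the only abundance limit it was 989 and 2304 nt.

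**Figure D5:**
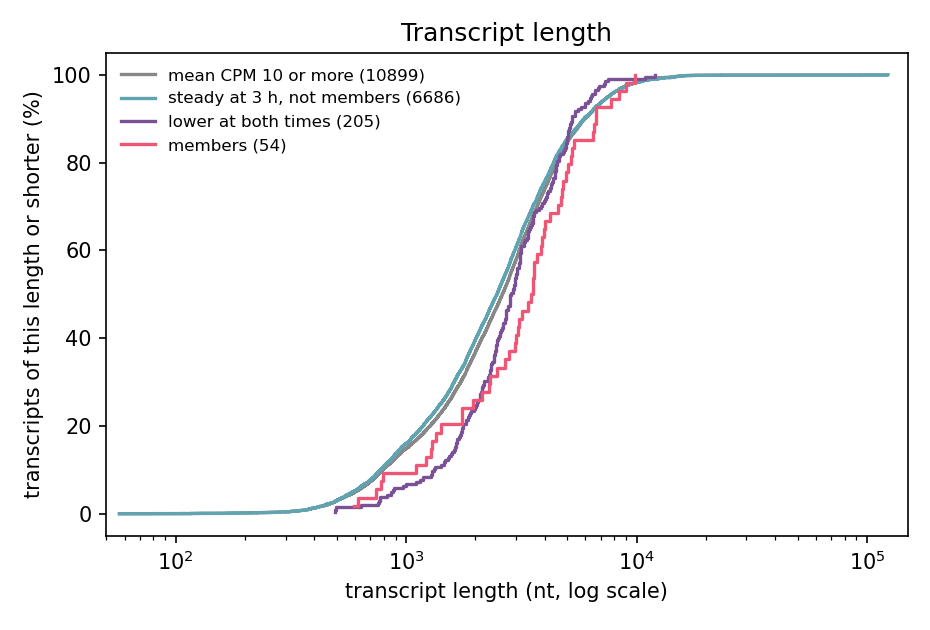
Cumulative share of transcripts (y axis, percent) by length (x axis, nt, log scale) for the members, the steady non-members, the transcripts lower at both times and the compared transcripts. The curve of the members runs to the right of those of the steady non-members and of the compared transcripts over most of the range (an order that turned with limits in TPM or total reads), with a median of 3508.5 nt against 2477.5, 2866 and 2615 nt.

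Length also went with the 6 h ratio among all transcripts that were steady at 3 h. Their median 6 h log2 ratio was 0.26 in those under 1000 nt and 0.03 in those of 1000 to 2000 nt. It was -0.15 for lengths of 2000 to 4000 nt, -0.32 for 4000 to 8000 nt and -0.51 for 8000 nt and above. Inside the window the median 3 h ratio also fell with length, from 0.07 under 1000 nt to -0.04 at 8000 nt and above. These medians were taken in CPM and not in TPM. In the same classes 0.466%, 0.566%, 0.862%, 1.17% and 1.11% were members, on 5, 9, 21, 16 and 3 transcripts. The exact intervals of the outer classes overlapped (0.151% to 1.08%, and 0.229% to 3.20%). Within the members the 6 h ratio had medians of -2.37 under 2000 nt, -2.27 for 2000 to 4000 nt and -2.18 for longer ones. The rule cut these ratios off at -2, so no relation to length is drawn from them.

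The shortest member, of 592 nt, had 11.8 and 9.62 CPM at 3 h and 16.2 and 3.08 CPM at 6 h (6 h log2 ratio -2.40, interval -2.82 to -2.0). The longest, of 9856 nt, had 17.8 and 16.6 CPM at 3 h and 24.5 and 5.43 CPM at 6 h (log2 ratio -2.17, interval -2.49 to -1.87). Both had the profile that the rule selects, and their 6 h intervals overlapped.

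Most members were near the lower limit of abundance. Of the 54, 38 (70.4%) had a mean CPM under 20, against 28.2% of the steady non-members and 50.7% of the 205 lower at both times, and 1 had 100 or more. Of the steady transcripts from 10 to 20 CPM, 1.98% were members (38 of 1923, interval 1.40% to 2.70%). The share was 0.481% from 20 to 50 CPM, 0.315% from 50 to 100 CPM and 0.0794% at 100 CPM or more (1 of 1259). Part of this was set by the choice, since a 4-fold lower treated library lowers the mean. The 16 members at 20 CPM or more had a median length of 4626 nt, and the 38 below it 3018 nt. Just above the limit of 10 were members with means of 10.1 and 10.2 CPM, and just below it transcripts with 9.83 and 9.61 CPM.

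The deposited read numbers are estimates, in which a read that fits several transcripts is divided among them. In none of the 54 members were the estimates whole numbers in all 4 libraries (0 of 54, which allows a share of up to 5.56%), as against 1.11% of the steady non-members. In 53 of the 54 no library had a whole number. Each member thus shared reads with at least 1 other transcript, and whether its lower level at 6 h was matched by a higher level of another transcript of the same gene was not tested, because no gene is paired with the identifiers. A change of the whole gene and a change in the division of its reads cannot be told apart here.

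Which transcripts met the limits depended on the scaling. TMM factors raised all 6 h log2 ratios by 0.22 and DESeq2 size factors by 0.23, and 34 transcripts then met the rule under either, of which 26 were among the 54. In TPM all 54 stayed at -2 or less at 6 h (median -2.55), but 31 stayed within 0.3 of 0 at 3 h, the median there being -0.28.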

How the data were processed

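The series has 27 samples, of which the 4 RNA libraries were used. The other 23, chromatin libraries, are not analysed here. Per the file headers, the tables have the columns that Salmon writes: length, effective length, TPM and an estimated count per transcript. No version of Salmon, transcript set or strand setting is given in the sources used here. The submitters' processing notes list SAMtools 1.0.6, Bowtie 1.0.0, FastQC 0.11.4 and the builds mm10 and dm3, without saying which served the RNA libraries. Estimated counts were used as deposited, on no common scale, while the deposited TPM values are relative to effective length and sum to 1000000.

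Estimated counts were rounded, and CPM was taken over the library totals of 27443889 (untreated, 3 h), 27242760 (triptolide, 3 h), 24913767 (untreated, 6 h) and 19145129 reads (triptolide, 6 h). A count of 0 was set to 3 reads in ratios, which is 0.109 to 0.157 CPM. Intervals are exact conditional binomial (Clopper-Pearson) for ratios and shares, and binomial order-statistic intervals for medians. A whole number means within 1e-06. Transcripts called lower at both times had log2 ratios of -1 or less at 3 h and -2 or less at 6 h. Alternatives used TMM factors of edgeR 4.0.16 and size factors of DESeq2 1.42.0, from transcripts whose mean CPM was at least 1, and SciPy 1.17.1 gave the intervals. The selection was tested on simulated counts with no variation between replicates and no division of reads, and with falls deeper than in most members. That test therefore does not show how the selection performs on these libraries.

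The members, the comparison groups and the rule for members described singly were chosen with earlier results of these data known. That rule took the 8 with the highest mean CPM, the 4 with the lowest upper bound of the 6 h interval, the shortest, the longest, those nearest each limit, and members with whole-number estimates, of which there were 0. The members of 738, 1283, 4792 and 621 nt were picked after their values were seen. Lists of marker and pathway genes were not used, because no identifier could be paired with a gene.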

Additional observations from a re-analysis of the deposited data

Results flagged for a closer look

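In 7 members the log2 ratio was above 0 at 3 h and at -2 or less at 6 h, so that its sign differed between the times. At 3 h it was only 0.01 in the transcripts of 3001 and 1283 nt. The difference between the times was not tested, and its size was largely set by the rule that chose the members. The 6 h ratio minus the 3 h ratio was -2.11 in the transcript of 3001 nt, -2.11 in that of 5058 nt and -2.25 in that of 5356 nt. It was -2.31 in the transcript of 3198 nt, -2.28 in that of 738 nt, -2.11 in that of 3474 nt and -2.57 in that of 1283 nt. In none of the 7 did the 3 h counting interval lie wholly above 0.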

How the results depend on the processing

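Of 87 recomputed values, 52 stayed within their limit (a count within 1.5 times, another value within its interval), 34 moved beyond it and 1 changed sign. The 52 include settings that left the same 54 members: 0 set to 1 read, transcripts at 0 left out, and no identifier left out. They also include the count in TPM, 36, although 7 of those were among the 54. The tally is therefore no measure of how stable the membership was. Without library totals as the scale, 34 transcripts met the rule with TMM factors and 34 with DESeq2 size factors, 0.506% of the steady transcripts in both. Of these, 26 were among the 54 members, which is 48.1% of the members and 76.5% of the 34. In TPM, with a mean TPM of 10 or more, 36 met the rule and 7 were among the 54. Their median length was 779.5 nt (the cause was not tested), and their median untreated time ratio was 0.37. With a mean CPM of 5 or more, 105 met the rule (1.19%), and with 20 or more, 16 (0.332%, median length 4626 nt). With 10 reads summed over the 4 libraries in place of the CPM limit there were 1061 (4.66%), with a median 6 h ratio of -2.49, a median untreated ratio of 0.62 and a median length of 989 nt. A 3 h window of 0.2 gave 27 (0.545%) and one of 0.5 gave 121 (1.39%). A 6 h limit of -1.5 gave 172 (2.55%, median -1.82), and one of -2.5 gave 17 (0.252%, median -2.75). Requiring the whole 6 h interval at -2 or less left 25 (0.371%, median -2.60). Whole-number estimates alone left 0 of 74 steady transcripts (0%), too few to show a share of this size.

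Changes of reference were added after the values were seen. With the mean of both untreated libraries as the reference at both times, 37 transcripts met the rule (0.564%), 17 of them among the 54, and the median untreated ratio turned to -0.19. With the untreated 3 h library as the reference, 37 met it (0.549%), 28 of them among the 54, with a median untreated ratio of 0.010. The higher untreated level at 6 h thus depended on the reference that chose the transcripts. Median length was 3386 nt under both references and 2902.5 nt under TMM and DESeq2 factors. Thinning to the smallest total gave 58, of which 49 were among the 54. Sums per gene were not run, because no identifier is paired with a gene.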
